A study of Sus scrofa with 22 samples.

Results

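The genes described here encode the machinery of inhibitory transmission by GABA and glycine: subunits of the GABA-A, GABA-B and glycine receptors, the enzymes that make and break down GABA, transmitter transporters, a postsynaptic scaffold protein and the chloride carriers. The list names 30 genes and was set by gene function, not by measured values, though earlier results of these data were known when it was chosen. Of these, 28 were matched to a row among the 31907 gene rows of the count tables. GABRR2 and NLGN2 were not matched and were not analysed here. The list does not hold every GABA-A subunit or transporter. A total of 22 members passed the filter on low counts and were tested. The other 6 members, GABRA5, GABRG3, GABRE, GABRQ, GABRP and GLRA3, had too few reads to test, and their counts are given below.

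GABA and glycine are the fast inhibitory transmitters of the central nervous system. Both open chloride channels built from several subunits, and the sign and strength of the response depend on the chloride gradient that the carriers KCC2 (SLC12A5) and NKCC1 (SLC12A2) set. In the cerebellum GABA is released by Purkinje cells and by the interneurons of the cortex. Granule neurons carry receptors with the alpha6 subunit, and those that pair alpha6 with the delta subunit lie outside the synapse and give a lasting, tonic current. GABA-B receptors act more slowly, through G proteins.

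The samples were whole-tissue RNA from the cerebella of 22 piglets (Sus scrofa). The cerebellum tunes posture, balance and fine movement. In the BDL group the bile duct had been tied off surgically (bile duct ligation), which holds bile back in the liver, and the SHAM group had undergone a sham operation. Surgery took place at 8 days of age in both groups, and the animals were followed for 3 weeks. There were 11 BDL piglets, 7 female and 4 male, and 11 SHAM piglets, 5 female and 6 male. No genotype, breed or litter is given in the labels used here, and each library is 1 animal. The study asked, by its title, whether obstructive cholestasis affects balance and the brain in newborn piglets. Libraries held between 14811464 and 20046909 gene counts.

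The tissue label was checked against marker genes of cerebellar cell types. All 12 granule neuron markers were matched, and their summed level had a median of 7070 CPM (a gene's count relative to its library's TMM-scaled total) in BDL and 7250 CPM in SHAM animals. Purkinje cell markers summed to a median of 3400 and 3390 CPM. Of 16 matched markers of brainstem and deep nuclei, 14 had a mean under 1 CPM, and HOXB5 and HOXC4 were at 0 in every library. The list's sum lay between 12.1 and 32.7 CPM. Most of that sum was SLC17A6, with a mean of 17.1 CPM in BDL and 16.5 CPM in SHAM animals. Glial markers varied more widely: the sum of the oligodendrocyte markers ran from 5060 to 28800 CPM.

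A group of 3 libraries, BDL replicates 2, 4 and 8, stood apart from the other 19. On the first principal component of the tested genes other than the members, which held 16.2% of the variance, they scored 34.1, 25.5 and 24.9. The next highest score was 12.4, in BDL replicate 10, and the lowest was -22.5, in SHAM replicate 1. All 3 were from females. In these libraries the cerebellar interneuron markers summed to 280, 309 and 342 CPM, below the range of 344 to 507 CPM in the other 19. Their granule neuron marker sums, 7440, 7740 and 7070 CPM, lay inside the range of the others, as did Purkinje, brainstem, microglia and endothelial sums. Replicate 2 was below the other 19 animals in oligodendrocyte (5060 CPM), oligodendrocyte precursor (334 CPM) and astrocyte and Bergmann glia markers (4060 CPM). Replicate 4 was above them in choroid plexus and ependymal markers, at 1540 CPM against at most 978 CPM. It was below them in granule cell precursor and dividing cell markers (195 CPM). The 3 libraries were picked by their scores on an axis of the whole transcriptome, so many genes can be extreme in them. How many of all tested genes lay outside the other 19 animals in these libraries was not counted. The main results that rest on the 3 libraries are given with and without them, an alternative chosen after the data had been seen.

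No member differed between BDL and SHAM animals at an adjusted p under 0.05 (edgeR quasi-likelihood test with sex as a covariate, Benjamini-Hochberg adjustment over 14994 genes). The smallest adjusted p of a member was 0.881, and the share of all tested genes that passed was 0%. GABRA6 and GABRG1 had an unadjusted p under 0.05, which makes 2 of 22 members beside 4.96% of all tested genes. DESeq2 and limma-voom each called 0 members, with 2 at an unadjusted p under 0.05. DESeq2 called 1 gene of all those tested, which was not a member. The CPM ranges of BDL and SHAM animals overlapped for all 22 members, and 0% of all tested genes had ranges that did not overlap.

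Most members had a log2 fold change on the lower side in BDL. This held for 18 of 22 members, with a median of -0.05, where 49.7% of all tested genes were on the lower side with a median of 0.00067. Without the 3 libraries that stood apart, 10 of 22 members were on the lower side with a median of 0.01, and the share of all tested genes was 53.1%. No member then had an unadjusted p under 0.05, against 3.44% of all tested genes. The 95% confidence interval lay inside a 1.25-fold change either way for 14 of 22 members, a share like that of all tested genes (63.6%). For the remaining members it reached past 1.25-fold. It lay inside a 1.5-fold change for 21 of 22 members (87.1% of all tested genes). GABRR1 was the member whose interval reached past 1.5-fold.

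**Figure D1:**
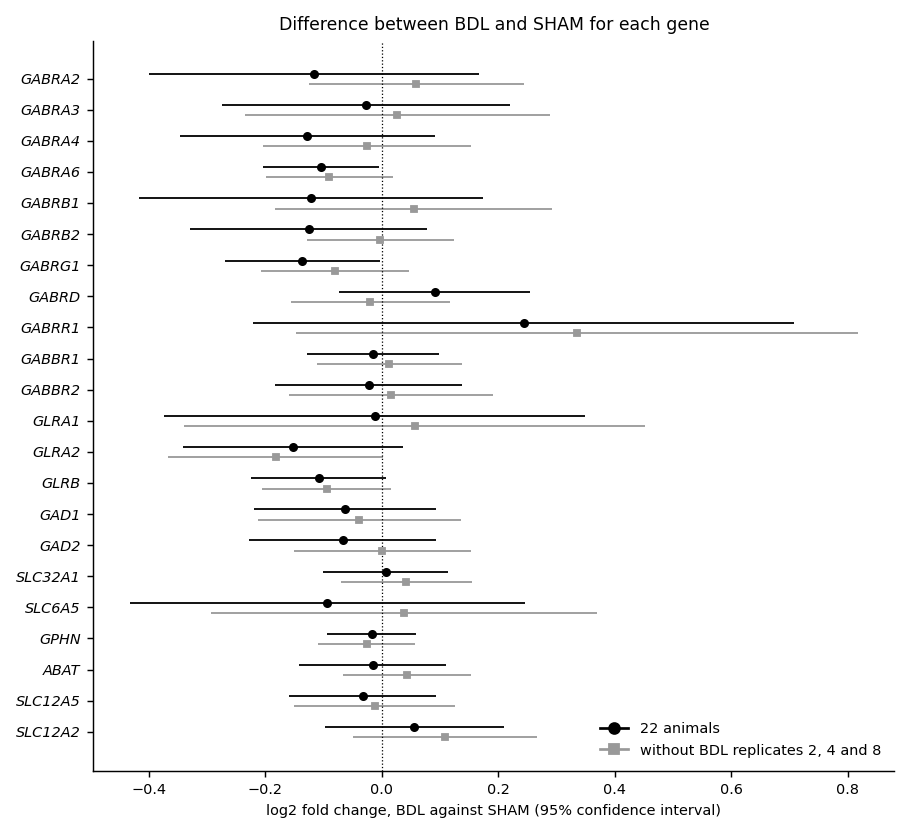
Log2 fold change of BDL against SHAM with its 95% confidence interval (x axis) for each of the 22 tested genes (y axis), over 22 animals (black circles) and over 19 animals without BDL replicates 2, 4 and 8 (grey squares). The black circles lie on the lower side for 18 genes and the grey squares for 10, and GABRR1 has the widest interval.

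The alpha subunits shape the GABA binding site and the pharmacology of GABA-A receptors. GABRA6, the granule neuron subunit, lies at chr16:61855698-61872503 on the build Sscrofa11.1. Its level in SHAM animals had a lowest value of 325 CPM, a median of 393 CPM and a highest of 423 CPM. In BDL animals the lowest value was 318 CPM, the median 353 CPM and the highest 396 CPM. A total of 10 of 11 BDL animals lay below the SHAM mean, and the ranges overlapped. At the low end the overlap rested on SHAM replicate 4, at 325 CPM, the next SHAM animal being at 349 CPM. The log2 fold change was -0.10 ± 0.05 (SE), with an unadjusted p of 0.0406 and an adjusted p of 0.881 in the edgeR test. Without the 3 libraries it was -0.09 ± 0.05 with an unadjusted p of 0.0998. The difference did not pass, so it may be no difference at all. In whole tissue, fewer granule neurons and less GABRA6 RNA in each could also not be told apart.

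GABRA2 encodes alpha2, a subunit of synaptic receptors that is prominent early in brain development. Its SHAM values had a lowest of 17.8 CPM, a median of 22.3 CPM and a highest of 27.1 CPM. The BDL values spread further, from a lowest of 10.7 CPM through a median of 22.9 CPM to a highest of 28.0 CPM. BDL replicates 2, 4 and 8, at 11.1, 10.7 and 15.7 CPM, were below all other 19 animals, and the other BDL animals lay within or slightly above the SHAM range. The log2 fold change was -0.12 ± 0.14, adjusted p = 0.916 by edgeR, and 0.06 ± 0.09 without the 3 libraries.

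GABRA4, whose alpha4 subunit forms extrasynaptic receptors in the forebrain, followed a like distribution. The lowest, median and highest values were 8.60, 14.2 and 21.3 CPM in BDL and 13.9, 15.4 and 17.9 CPM in SHAM animals. BDL values lay on both sides of the SHAM range, with replicates 2 and 4 the lowest of all animals. Its log2 fold change was -0.13 ± 0.11 (-0.03 ± 0.09 without the 3 libraries). GABRA3, which is on the X chromosome, had a mean of 8.79 ± 2.10 CPM (SD) in BDL and 8.54 ± 1.90 CPM in SHAM animals. The fitted log2 fold change of GABRA3, which takes sex into account, was -0.03 ± 0.12. It was 0.04 without the sex term, where the larger share of females in the BDL group is not taken into account. GABRA5 was near the limit of detection, with 63 reads over all BDL libraries and 49 over all SHAM libraries, and no counts in 3 of the 22.

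Beta subunits are needed to assemble and traffic the receptor. GABRB2 lies next to GABRA6, at chr16:61984923-62240902. Its lowest, median and highest values were 103, 206 and 236 CPM in BDL animals and 186, 208 and 254 CPM in SHAM animals. The low end of the BDL group was made up of replicates 2, 4 and 8, at 103, 143 and 167 CPM, below the other 19 animals, whose lowest was 186 CPM. The medians of the groups were close, and the log2 fold change moved from -0.13 ± 0.10 over all animals to -0.002 ± 0.06 without these libraries. GABRB1 had a mean of 6.38 ± 1.88 CPM in BDL and 7.02 ± 1.08 CPM in SHAM animals. Its values in replicates 2, 4 and 8 were 3.96, 3.54 and 4.33 CPM, again below all others, whose lowest was 5.07 CPM. The log2 fold change of GABRB1 was -0.12 ± 0.14, and 0.05 ± 0.12 without them.

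GABRG1 encodes gamma1, which in the cerebellum is known from Bergmann glia. Its lowest, median and highest values were 129, 157 and 196 CPM in BDL and 151, 171 and 203 CPM in SHAM animals. In 9 of 11 BDL animals the value was below the SHAM mean, and the ranges overlapped over most of their length. The log2 fold change was -0.14 ± 0.06, with an unadjusted p of 0.0446 and an adjusted p of 0.881 (edgeR). Without the 3 libraries, of which replicates 2 and 4 had the lowest values of all animals, it was -0.08 ± 0.06 with an unadjusted p of 0.201. The summed astrocyte and Bergmann glia markers were 4060, 5210 and 6670 CPM in BDL replicates 2, 4 and 8, against 5040 to 7810 CPM in the other 19 animals. The part of these marker levels in the GABRG1 difference was not tested. GABRG3 had 104 reads over all BDL and 87 over all SHAM libraries, which is too few to test.

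**Figure D2:**
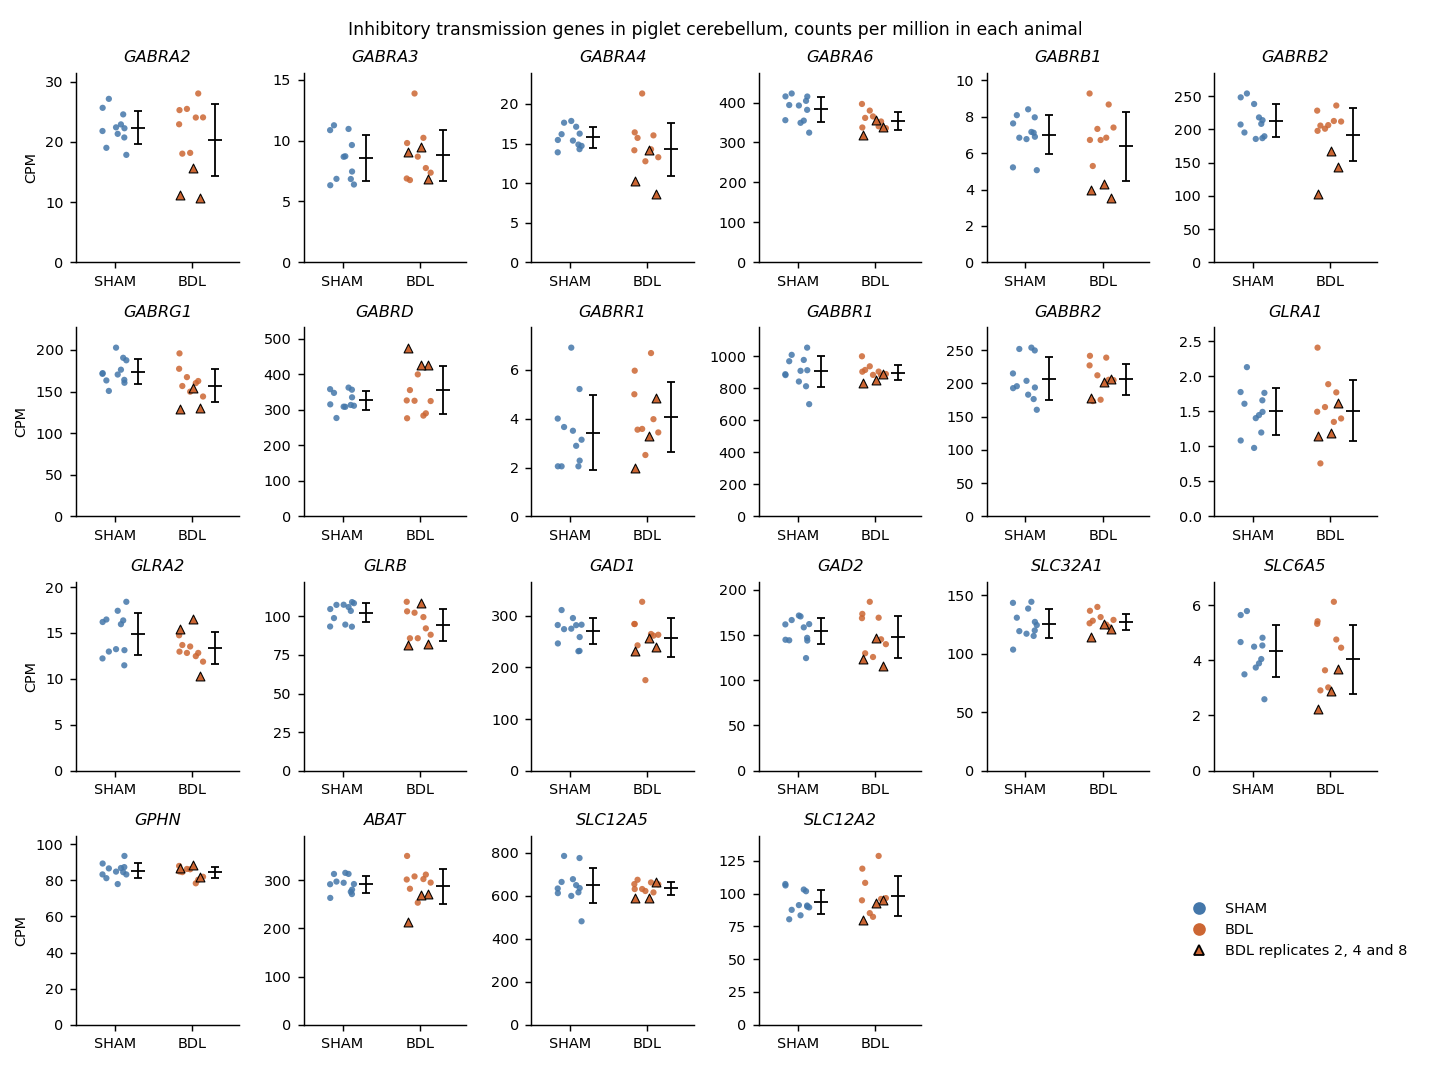
CPM (y axis, from 0) of each of the 22 tested genes in SHAM (blue) and BDL (orange) animals, 1 point per animal, with the mean and SD of each group as a bar beside the points. BDL replicates 2, 4 and 8 are triangles: they are the lowest points of GABRA2, GABRB1 and GABRB2 and the highest of GABRD.

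GABRD, the delta subunit of tonic receptors in granule neurons, at chr6:64049665-64059644, ran the other way in the 3 libraries. Its lowest, median and highest values were 276, 326 and 475 CPM in BDL and 277, 315 and 362 CPM in SHAM animals. Replicates 2, 4 and 8, at 475, 427 and 426 CPM, were above all other 19 animals, which ended at 400 CPM. The remaining BDL animals lay between 276 and 400 CPM and overlapped the whole SHAM range. Over all animals the log2 fold change was 0.09 ± 0.08 (adjusted p = 0.883, edgeR), and without the 3 libraries it was -0.02 ± 0.07.

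The other GABA-A members were scarce. GABRR1, a rho subunit best known from the retina, had a mean of 4.08 ± 1.42 CPM in BDL and 3.43 ± 1.52 CPM in SHAM animals, a log2 fold change of 0.24 ± 0.23. Of the 22 tested members it had the largest spread between animals of 1 group, a biological coefficient of variation of 34.6%, higher than in 94.1% of all tested genes. It was 33.5% without the 3 libraries. GABRP (pi) had 8 reads over all BDL and 9 over all SHAM libraries. GABRE (epsilon) had 2 reads in each group. GABRQ (theta) had 2 reads, both in 1 BDL library, and 0 in SHAM. At these depths no difference between the groups could be seen for any of them.

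The subunit genes sit in clusters, as in other mammals. On chromosome 8 GABRG1, GABRA2, GABRA4 and GABRB1 follow each other between 36198056 and 37354950 (RefSeq, Sscrofa11.1). GABRB2 and GABRA6 are neighbours on chromosome 16, GABRG3 and GABRA5 on chromosome 1, and GABRE, GABRA3 and GABRQ lie together on the X chromosome. Of the chromosome 8 genes in this cluster, GABRA2 and GABRB1 were below all other animals in each of the 3 libraries that stood apart, and GABRA4 and GABRG1 in replicates 2 and 4 but not in replicate 8. Low values were not confined to the cluster, and the share of all tested genes with such values in these libraries was not counted. GABRB2 on chromosome 16 was below all other animals in each of the 3 libraries. GAD2 on chromosome 10 and GLRB, elsewhere on chromosome 8, were so in replicates 2 and 4. GABRR1 lies elsewhere on chromosome 1, beside GABRR2. Of GABRG3, GABRA5, GABRE, GABRA3 and GABRQ, GABRA3 alone was tested.

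GABA-B receptors are made of GABBR1, which binds GABA, and GABBR2, which couples to the G protein. GABBR1 had lowest, median and highest values of 835, 890 and 1001 CPM in BDL and 702, 910 and 1055 CPM in SHAM animals. The BDL values fell inside the SHAM range throughout, and the log2 fold change was -0.01 ± 0.06. GABBR2 had a mean of 206 ± 23.8 CPM in BDL and 207 ± 32.0 CPM in SHAM animals, with a log2 fold change of -0.02 ± 0.08.

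Glycine receptors are built from an alpha subunit, which binds glycine, and the beta subunit GLRB, which anchors the receptor to gephyrin. GLRB values were lowest at 81.5 CPM, with a median of 92.3 CPM and a highest of 109.5 CPM in BDL animals. In SHAM animals they were 93.3, 104.8 and 109.3 CPM. The SHAM animals lay within the upper part of the BDL range. Its log2 fold change was -0.11 ± 0.06 with an unadjusted p of 0.0668, and -0.09 ± 0.05 with an unadjusted p of 0.092 without the 3 libraries. GLRA2, the alpha subunit that dominates before birth, had a mean of 13.4 ± 1.71 CPM in BDL and 14.9 ± 2.34 CPM in SHAM animals, with 9 of 11 BDL animals below the SHAM mean. The log2 fold change of GLRA2 was -0.15 ± 0.09 (unadjusted p = 0.109, edgeR), and -0.18 ± 0.09 (unadjusted p = 0.0532) without the 3 libraries. GLRA1, the adult alpha subunit of the spinal cord and brainstem, was scarce in both groups, at 1.51 ± 0.43 CPM in BDL and 1.50 ± 0.34 CPM in SHAM animals. GLRA3 had 27 reads over all BDL and 28 over all SHAM libraries.

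The enzymes of GABA synthesis, GAD1 (GAD67, which supplies most of the cell's GABA) and GAD2 (GAD65, found at nerve terminals), did not pass the test. GAD1 had a mean of 257 ± 37.8 CPM in BDL and 270 ± 25.4 CPM in SHAM animals, with a log2 fold change of -0.06 ± 0.08. GAD2 had a mean of 148 ± 23.5 CPM and 154 ± 14.5 CPM, with a log2 fold change of -0.07 ± 0.08. ABAT, the transaminase that breaks GABA down, had a mean of 287 ± 35.6 CPM and 292 ± 17.6 CPM, with a log2 fold change of -0.02 ± 0.06. All 3 intervals included no change, and GAD2 was at 0.0007 ± 0.07 without the 3 libraries.

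SLC32A1, the vesicular transporter that loads GABA and glycine into synaptic vesicles, had a mean of 127 ± 7.09 CPM in BDL and 126 ± 12.7 CPM in SHAM animals. Its log2 fold change was 0.01 ± 0.05, with an interval from -0.10 to 0.11. SLC6A5, the glycine transporter of glycinergic neurons such as Golgi cells, had a mean of 4.04 ± 1.25 CPM and 4.34 ± 0.93 CPM, with a log2 fold change of -0.09 ± 0.16.

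GPHN encodes gephyrin, the scaffold that holds glycine and GABA-A receptors at the synapse. The lowest, median and highest values were 78.4, 84.9 and 88.2 CPM in BDL and 77.9, 84.8 and 93.5 CPM in SHAM animals. The BDL values lay inside the SHAM range. Its biological coefficient of variation was 6.49%, the lowest of the 22 tested members and lower than in all but 0.333% of tested genes, and its log2 fold change was -0.02 ± 0.04. GABRA6 (8.47%) and SLC32A1 (8.91%) also varied little between animals, whereas SLC6A5 (24.9%), GABRB1 (22.3%) and GABRA2 (21.9%) varied more. For GABRA2 the trend at its level was 15%. The coefficient over the other 19 animals was 13.3% for GABRA2, 16.3% for GABRB1 and 22.3% for SLC6A5, against 6.6% for GPHN, 8.56% for GABRA6 and 8.73% for SLC32A1. GPHN was again the lowest of the 22 members, while the spread of GABRA2 and GABRB1 was smaller without those libraries.

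The chloride carriers work against each other: SLC12A5 (KCC2) exports chloride from mature neurons, and SLC12A2 (NKCC1) imports it into immature neurons and glia. SLC12A5 had lowest, median and highest values of 588, 631 and 674 CPM in BDL and 481, 635 and 785 CPM in SHAM animals, so the BDL animals lay in the middle of the SHAM range. The log2 fold change was -0.03 ± 0.06. SLC12A2 had lowest, median and highest values of 80.1, 95.2 and 129 CPM in BDL and 80.4, 90.9 and 107 CPM in SHAM animals. The ranges overlapped except at the upper end, where 3 BDL animals were above the highest SHAM animal, and the log2 fold change was 0.06 ± 0.07 (0.11 ± 0.08 without the 3 libraries). In each animal SLC12A5 counts were set against SLC12A2 counts. The log2 ratio was 2.71 ± 0.19 in BDL and 2.78 ± 0.26 in SHAM animals (SD, n = 11 each), a difference of -0.08 with p = 0.434 (two-sided permutation of treatment within sex, 100000 resamples).

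The composition of the receptors was followed through 8 such ratios within an animal, which do not depend on library size. Levels of different genes were not compared with each other, because no transcript lengths were at hand, so a ratio has meaning only between animals. None of the 8 ratios differed at an adjusted p under 0.05. The closest was GABRA6 to GABRD, the subunits paired in tonic granule neuron receptors, with a mean log2 ratio of 0.01 ± 0.30 in BDL and 0.23 ± 0.20 in SHAM animals. That difference of -0.22 had p = 0.0496 and an adjusted p of 0.397 by permutation, with 7 of 11 BDL animals below the SHAM mean. It was -0.07 without the 3 libraries. Within females it was -0.20 and within males -0.15. All 8 differences are between group means and are not adjusted for sex. The larger share of females in the BDL group can thus shift them and their p-values. The ratio of GLRA1 to GLRA2, which rises in development, was -3.17 ± 0.52 in BDL and -3.30 ± 0.44 in SHAM animals, a difference of 0.13 (permutation p = 0.523). For GABRA6 to GABRA2 the difference was 0.08 (p = 0.592), and -0.14 without the 3 libraries. GAD1 to GAD2, GABBR1 to GABBR2 and GABRB2 to GABRB1 differed by -0.007, -0.003 and 0.007, and SLC6A5 to SLC32A1 by -0.15. Without the 3 libraries these differences were -0.05, -0.004, -0.05 and -0.03 in the same order, and those of GLRA1 to GLRA2 and SLC12A5 to SLC12A2 were 0.21 and -0.10. Over all animals, GAD1 to GAD2 differed by 0.002 within females and 0.01 within males, so its sign over both sexes was not that within either. Of the 7 ratios other than GABRA6 to GABRD, none had an adjusted p under 0.947.

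Sex was examined next, since both groups held females and males. No member differed between females and males at an adjusted p under 0.05 in the edgeR fit, beside 0.06% of all tested genes. GABRA3 on the X chromosome was the 1 member with an unadjusted p under 0.05 (5.97% of all tested genes). It had a lowest value of 6.33 CPM, a median of 9.54 CPM and a highest of 13.9 CPM in 12 females, and 6.39, 7.12 and 11.3 CPM in 10 males. A total of 10 of 12 females and 2 of 10 males were above the SHAM mean, and the ranges overlapped. The log2 difference was 0.33 ± 0.12, with an unadjusted p of 0.0121 and an adjusted p of 0.768 (edgeR).

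Whether BDL acted differently in the sexes was tested as an interaction. No member passed, as for all tested genes (0%), and 0 members had an unadjusted p under 0.05 (4.6% of all tested genes). The interaction with the smallest p was that of GABRB1, at -0.54 ± 0.27 on the log2 scale (unadjusted p = 0.0616, edgeR), and -0.25 ± 0.23 (unadjusted p = 0.299) without the 3 libraries. Within females, which include the 3 libraries that stood apart, 18 of 22 members were on the lower side in BDL (49.5% of all tested genes), and 0 had an unadjusted p under 0.05 (5.84%). With those libraries left out, 12 of 22 members were on the lower side in females (51.2% of all tested genes), and 0 had an unadjusted p under 0.05 (2.38%). Within males, 10 of 22 members were on the lower side (52.5%). GLRB was the 1 member with an unadjusted p under 0.05 in males (4.07%), with a log2 fold change of -0.17 ± 0.08 (unadjusted p = 0.0491, adjusted p = 1.0 by edgeR).

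The leading axis between libraries ran through several members. What sets this axis is not given in the labels and was not tested. Reads that could not be assigned to 1 gene (ambiguous) were 6.33%, 6.3% and 6.55% of counted reads in BDL replicates 2, 4 and 8. In SHAM replicate 1, which had the lowest score, they were 5.61%. BDL replicate 3, with a score of -9.81, had 6.31%. Members were set against the first principal component of the other genes over 22 animals, a comparison added after the data had been seen, with p-values by permutation adjusted over the 22 members. For 11 members the adjusted p was under 0.05, 10 with a negative and 1 with a positive correlation. By Spearman's rho 5 of these passed: GABRA2, GABRB1, GABRB2, GABRD and SLC6A5. The axis ran through many genes of the transcriptome: an r of at least 0.5 in size was found for 10 of 22 members beside 28.3% of all tested genes, and the members' count is a description with no test against that share. GABRA2 had r = -0.917 (adjusted p = 7.33e-05, Spearman rho -0.825, adjusted p = 0.00066, by permutation), and r = -0.852 without the 2 animals farthest from the median score. Its unadjusted p of 1e-05 is the smallest that the resamples can give. GABRD had r = 0.884 (adjusted p = 7.33e-05, rho 0.74), and r = 0.788 without the 2 farthest animals.

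Over the 19 animals without BDL replicates 2, 4 and 8 the axis still went with 4 members. The scores were those of the axis fitted on all 22 libraries, and it was not refitted on the 19. Its direction thus still depends on the 3 libraries left out. These were GABRA2 (r = -0.792, permutation adjusted p = 0.00088), SLC6A5 (r = -0.71, 0.00638), GABRD (r = 0.686, 0.00983) and GABRB2 (r = -0.594, 0.0383). The other 7 members, GABRB1, GABRA4, ABAT, GABRG1, GABRA6, GAD2 and GLRB, passed only with the 3 libraries in. Within SHAM animals alone r was -0.836 for GABRA2, -0.703 for SLC6A5, -0.661 for GABRB2 and 0.559 for GABRD, the same signs as over all animals. GPHN did not pass, with r = 0.067. Over the 19 animals 5 of 22 members had an r of at least 0.5 in size, beside 16.2% of all tested genes.

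**Figure D3:**
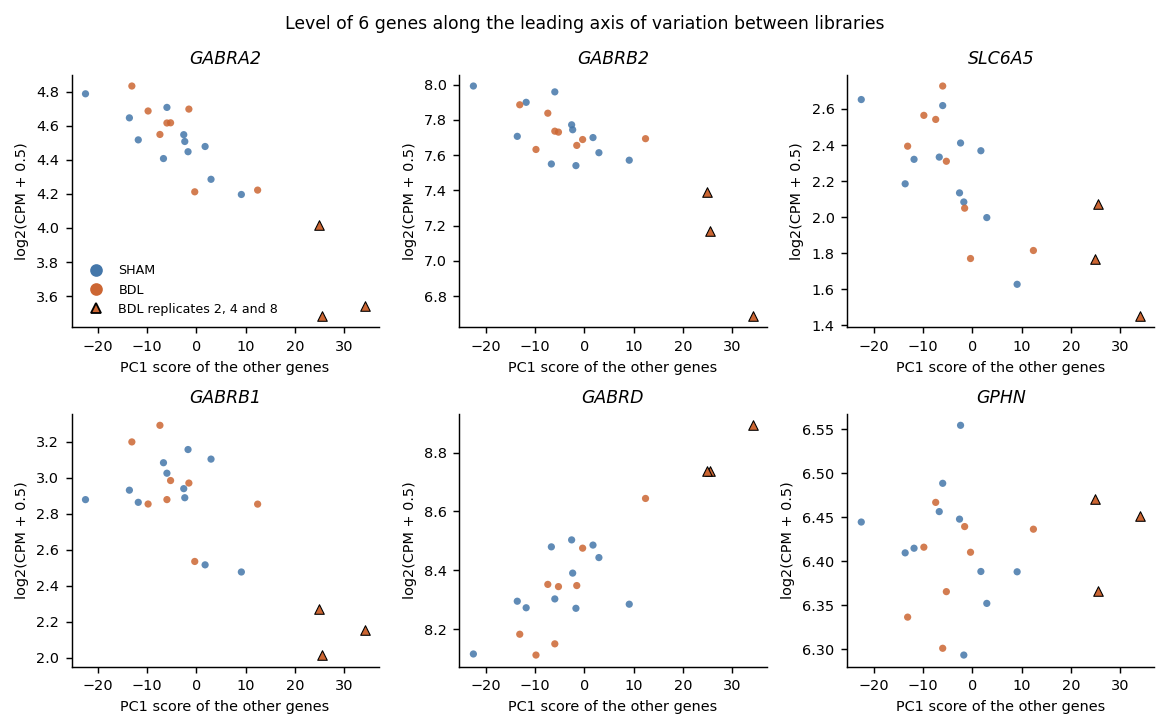
Level of 6 genes as log2(CPM + 0.5) (y axes) against the score of each library on the first principal component of the tested genes other than the members (x axes), 1 point per animal, SHAM in blue and BDL in orange, with BDL replicates 2, 4 and 8 as triangles. GABRA2, GABRB2, SLC6A5 and GABRB1 lie lower and GABRD higher towards the right, while GPHN stays level.

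Members also varied with each other from animal to animal. All 231 pairs of the 22 tested members were correlated over the animals, also after the data had been seen, and 43 pairs had an adjusted p under 0.05 by permutation, 34 positive and 9 negative. The median r over all pairs was 0.204. An r of at least 0.5 in size was found for 51 of the 231 pairs (22.1%), beside 8.73% of all pairs of tested genes. Over the 19 animals it was found for 29 pairs (12.6%), beside 8.36% of all pairs. Pairs share genes and libraries, so these shares are descriptions and were not tested. Over the 19 animals without the 3 libraries 6 pairs passed, and all 6 were among the 43. GABBR1 and SLC12A5 were the closest pair, with r = 0.89 (adjusted p = 0.00077) and rho = 0.835 (adjusted p = 0.00231) over 22 animals, r = 0.789 without the 2 animals farthest from the median, and r = 0.89 over 19 animals. Within SHAM animals r was 0.932 and within BDL animals 0.631. SHAM replicates 6 and 1 had the highest granule neuron marker sums (8380 and 8060 CPM) and the highest values of both genes. SHAM replicate 4 had the lowest sum (6230 CPM) and the lowest value of both. The part of cell share in this pair was not tested. GABBR1 also went with its partner GABBR2 (r = 0.719, rho = 0.6, and 0.71 over 19 animals).

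A second set joined the GABA enzymes. GAD1 and GAD2 had r = 0.742 (permutation adjusted p = 0.00289, rho 0.757) and 0.748 over 19 animals, and GAD1 and ABAT had r = 0.684 (adjusted p = 0.014). GABRA2 went with SLC6A5 at r = 0.719 over 22 and 0.763 over 19 animals, and GABBR2 with SLC6A5 at r = 0.675. The strongest negative pair was GABRA2 with GABRD, at r = -0.853 over 22 animals and -0.661 over 19, where it no longer passed. GABRA2 and its chromosome 8 neighbour GABRB1 had r = 0.812 over all animals but 0.231 within SHAM, and 0.433 over the 19.

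**Figure D4:**
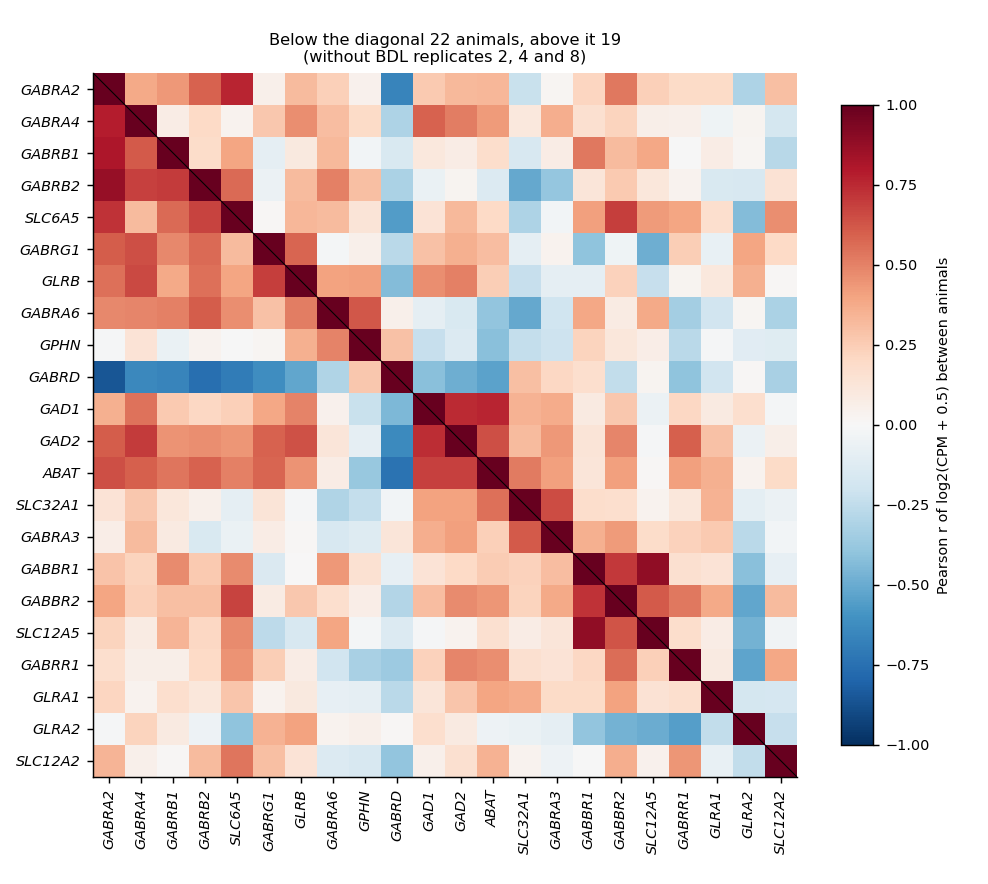
Pearson correlation between animals of log2(CPM + 0.5) for each pair of the 22 tested genes (both axes, colour scale from -1 in blue to 1 in red), over 22 animals below the diagonal and over 19 animals without BDL replicates 2, 4 and 8 above it. The block of GABRA2, GABRA4, GABRB1 and GABRB2 with its negative row for GABRD is darker below the diagonal, while GABBR1 with SLC12A5 is as dark on both sides.

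In whole tissue a gene can follow the share of a cell type. Members were therefore set against the mean log2 level of cell type markers in 12 pairings, adjusted over the 12. GAD2 followed the cerebellar interneuron markers, with r = 0.816 (adjusted p = 0.00012) and rho = 0.827 (adjusted p = 0.00012) over 22 animals by permutation. The r was 0.776 without the 2 animals farthest from the median, 0.828 within BDL, 0.83 within SHAM and 0.805 over the 19 animals. SLC12A2 followed the oligodendrocyte markers (r = 0.698, adjusted p = 0.00096, rho 0.773 by permutation), with 0.671 without the 2 farthest animals, 0.79 within BDL, 0.485 within SHAM and 0.668 over the 19. Against markers of choroid plexus, another known site of NKCC1, and ependyma, SLC12A2 had r = 0.209 (adjusted p = 0.603 by permutation). Only 5 of the 8 markers on that list were matched, 1 of them with a mean under 1 CPM. GABRA6 went with the granule neuron markers (r = 0.57, adjusted p = 0.0108, rho 0.604), with 0.547 without the 2 farthest animals, 0.353 within BDL and 0.559 within SHAM. GABRD did not pass against the same markers (r = 0.135, adjusted p = 0.731, permutation).

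The relations to astrocyte and Bergmann glia markers rested in part on the 3 libraries. GABRG1 had r = 0.726 (permutation adjusted p = 0.00076, rho 0.54) over 22 animals, 0.45 without the 2 animals farthest from the median, 0.338 within SHAM and 0.405 over the 19. ABAT, an enzyme of both neurons and astrocytes, had r = 0.742 (permutation adjusted p = 0.00076, rho 0.551), 0.531 without the 2 farthest animals, 0.283 within SHAM and 0.476 over the 19. GAD1 against Purkinje cell markers had r = 0.459 with a permutation adjusted p of 0.0608. For GLRA1 and SLC6A5 against brainstem markers, SLC12A5 against oligodendrocyte markers and GABRA2 against precursor markers r lay between -0.0718 and 0.134, and none passed. The brainstem pairings could hardly show a relation, since 14 of the 16 matched markers had a mean under 1 CPM. Their mean log2 level ran only from -0.497 to -0.244 over the animals.

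**Figure D5:**
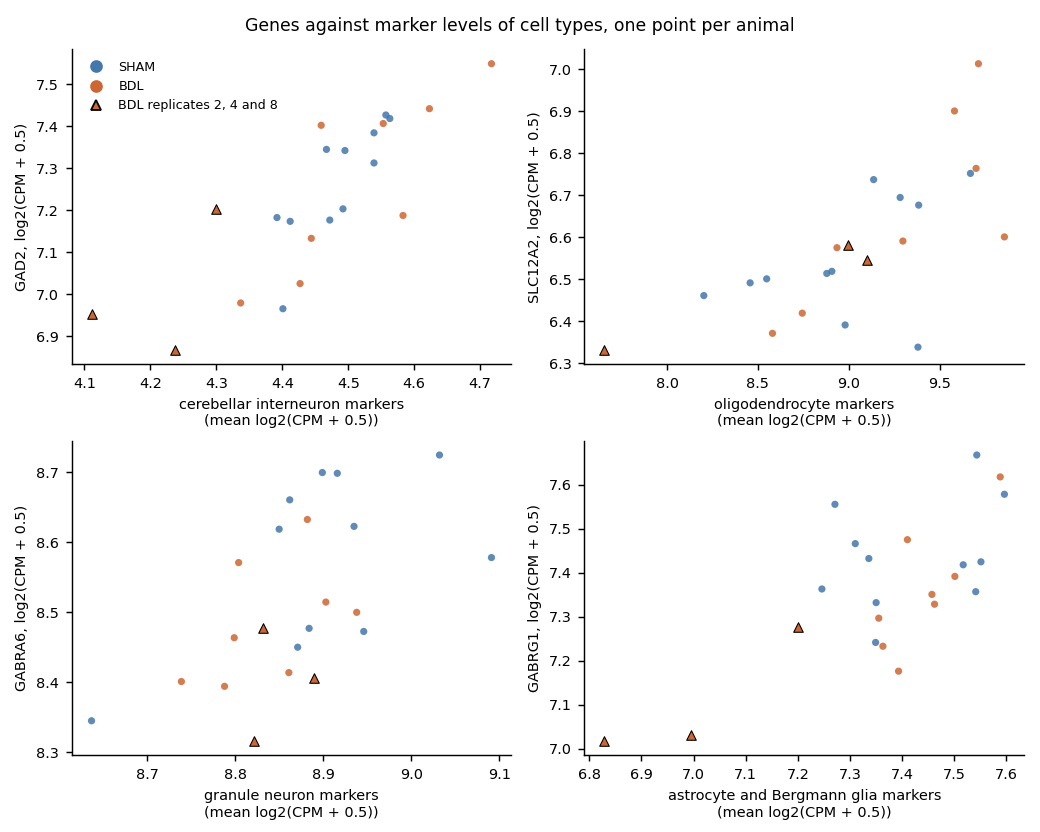
Level of GAD2, SLC12A2, GABRA6 and GABRG1 as log2(CPM + 0.5) (y axes) against the mean log2(CPM + 0.5) of a cell type's markers (x axes), 1 point per animal, SHAM in blue and BDL in orange, with BDL replicates 2, 4 and 8 as triangles. GAD2 rises with the interneuron markers in both groups (r = 0.816), and the relation of GABRG1 to the glial markers (r = 0.726) is 0.405 without the triangles.

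Other genes of the inhibitory pathway did not pass the test either. Of 46 such genes listed, which include GABA and glycine carriers, glycine cleavage enzymes, receptor-associated proteins, GABA-B effectors and regulators of the chloride carriers, 43 were matched and 40 tested. None passed in BDL against SHAM (edgeR), 22 were on the lower and 18 on the higher side, and the log2 fold changes ran from -0.23 to 0.38 with a median of -0.01. The smallest p was that of KCNJ6, a potassium channel opened by GABA-B receptors, with a mean of 43.6 CPM in BDL and 49.8 CPM in SHAM animals. Its log2 fold change was -0.20 ± 0.08 (unadjusted p = 0.0121, adjusted p = 0.881), and it was the 1 gene of this list with an unadjusted p under 0.05. GLDC, the glycine decarboxylase, had a log2 fold change of -0.13 ± 0.07 (unadjusted p = 0.0558, edgeR), and CA7, a neuronal carbonic anhydrase, had 0.14 ± 0.08 (unadjusted p = 0.0732).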

How the data were processed

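RNA-seq read counts per gene were deposited by the authors for 22 cerebella, 1 table per animal, as whole numbers without normalization. Per the labels' protocols, libraries of total RNA, isolated on columns suited to lipid-rich tissue, gave 150-base paired reads (NovaSeq). The submitters' processing notes name Trim Galore, HISAT2, HTSeq, DESeq2 and the pig build Sscrofa11.1. Versions, strand setting and statistical model were not given in the sources used here, and reads of overlapping antisense genes may not be separable. Lines of no gene (5 per table, 29.9% to 34.6% of counted reads) were left out.

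Genes were kept by filterByExpr (minimum count 10, minimum total 15), which left 14994. Counts were scaled by TMM and tested with edgeR 4.0.16 in R 4.3.3 (robust quasi-likelihood fit on sex and treatment). The interaction came from a model of the 4 treatment-by-sex groups. A gene passed at a Benjamini-Hochberg adjusted p under 0.05, and log2 fold changes carry standard errors. Log2 levels used CPM + 0.5, and ratios added 0.5 to each count. DESeq2 1.42.0, limma 3.58.1 (voom), DESeq2's size factors, no count filter, added covariates and leaving out each animal were alternatives. Symbols and positions came from RefSeq tables.

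The members, gene lists and tests were chosen with earlier results of these data known. All matched members are named, and of the other inhibitory pathway genes the 4 with the smallest p, of which 1 is not reported here. The planned composition per transcript length was not run, as no lengths were at hand. Counts of 14994 genes were simulated in 2 runs of BDL against SHAM, with 200 changed genes planted in each run. Of the genes with a 1.25-fold change 40.3% were called, as were 67.2% at 1.5-fold and 90.9% at 2-fold. Each gene was drawn independently, with no sex difference and no axis between libraries. With fewer changed genes the adjusted p is stricter, so these shares do not give the chance of calling a single changed member. Replicate numbers follow deposition order and pair no animals. Since litters are not given, p-values measure the spread between these samples.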

Additional observations from a re-analysis of the deposited data

Results flagged for a closer look

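Single animals stood apart from their own treatment and sex group in 3 of 88 gene and group combinations, where chance gives about 5%. GABRA6 was lowest in SHAM replicate 4, a male, at 325 CPM, with the other SHAM males between 393 and 423 CPM. GABRR1 was highest in SHAM replicate 3, a male, at 6.91 CPM, with the other SHAM males between 2.05 and 3.66 CPM. SLC12A2 was highest in BDL replicate 11, a male, at 108 CPM, with the other BDL males between 94.9 and 96.6 CPM.

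GABBR1 lay on opposite sides in the sexes: every BDL female was below the mean of the SHAM females, and every BDL male was above the mean of the SHAM males. The difference between BDL and SHAM means in females minus that in males was -103 CPM. The interaction itself did not pass (log2 difference -0.16 ± 0.11, unadjusted p = 0.145, adjusted p = 0.917 by edgeR).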

How the results depend on the processing

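The count of members that passed in BDL against SHAM, in female against male and in the interaction was 0 under every alternative run. Of 22 members, 10 kept the sign of their BDL log2 fold change in all 30 settings. No paired analysis was possible because the replicate numbers follow deposition order and match no animals across groups.

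Members at an unadjusted p under 0.05 numbered 2, against 1 without a count filter, 0 with the animal number added, 0 without the 3 BDL libraries that stood apart, and 0 to 3 when each animal was left out. Members on the lower side numbered 18, against 10 without the 3 libraries and 15 to 19 with each animal left out. Without the 3 libraries, log2 fold changes reversed for GABRA2 (0.0595), GABRA3 (0.027), GABRB1 (0.0546), GABRD (-0.0195), GABBR1 (0.0131), GABBR2 (0.0159), GLRA1 (0.0564), GAD2 (0.00072), SLC6A5 (0.0381) and ABAT (0.0433), and so did the ratios GABRA6 to GABRA2 (-0.144) and GABRB2 to GABRB1 (-0.0516), and r of GABRA2 with precursor markers (-0.0593). Without the sex term GABRA3 (0.0406) and GLRA1 (0.00637) reversed, and with a prior count of 5 the ratio of GABRB2 to GABRB1 (-0.00195).

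Leaving out single animals moved log2 fold changes across 0 for ABAT (-0.048 to 0.0192), GABBR1 (-0.0445 to 0.0163), GABBR2 (-0.0533 to 0.0108), GABRA3 (-0.0911 to 0.0294), GLRA1 (-0.0886 to 0.0784), SLC12A5 (-0.0667 to 0.00504) and SLC32A1 (-0.0278 to 0.0314). It did the same for the ratios GABBR1 to GABBR2 (-0.0297 to 0.0197), GABRA6 to GABRA2 (-0.0022 to 0.131), GABRB2 to GABRB1 (-0.0395 to 0.0451) and GAD1 to GAD2 (-0.0312 to 0.0249).

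The r of GABRG1 with glial markers no longer passed without the 2 farthest animals (0.45), with summed CPM (0.475) and without the 3 libraries (0.405), nor did ABAT without the 3 libraries (0.476) and GABRA6 with granule neuron markers on summed CPM (0.478). GAD1 with Purkinje cell markers passed on residuals after sex and treatment (0.489). The cause was not tested in any of these. Genes called between the sexes numbered 9, against 31 without a count filter, 23 with DESeq2, 25 without the 3 libraries and 7 to 26 with each animal left out.

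GABRA5, GABRG3, GABRE, GABRQ, GABRP and GLRA3 were too shallow for any comparison. Exon and coding lengths were not at hand, so composition by length was not run.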
